A study of Mus musculus with 24 samples.

Results

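Messenger RNA was sequenced from primary myoblasts (PMs), muscle precursor cells isolated from wild-type C57/B6 mice of 3 to 4 weeks and grown on matrigel, at the start of differentiation and 3 days later. The 4 libraries described here, of 24 in the study, were chosen by their labelled siRNA and day: all had received the control siRNA (siControl, siLuc in the labels), 2 were collected at day 0 and 2 at day 3. Day 0 cells were undifferentiated and were harvested about a day after transfection, whereas day 3 cells had spent 3 days in medium with 2% horse serum (HS). The remaining libraries are siControl PMs at day 6, PMs with siRNAs against Tead1 and Tead4, and C2C12 cells with the same siRNAs and days. C2C12 cells are an established myoblast line from the C3H strain and were kept in another base medium. Transfection with a control siRNA was shared by both groups. The change of medium and the days in culture came together, and their parts in any difference cannot be told apart. The replicates are called biological duplicates, but no source used here ties them to separate animals, so the p-values measure the spread between samples. For the comparison of days this spread was estimated over all 12 PM libraries, including day 6 and the groups with siRNAs against Tead1 and Tead4.

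Skeletal muscle precursors are committed by the basic helix-loop-helix factors Myod1 and Myf5, which pair with E proteins at E-box sequences. When serum growth factors are withdrawn the cells leave the cell cycle, switch on Myog and Myf6, and fuse into multinucleated myotubes that assemble sarcomeres, the repeated units of myosin thick filaments and actin thin filaments. Mef2 factors act with the myogenic factors on the muscle genes, while Id proteins and Notch signalling hold precursors undifferentiated.

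Each library had between 32571583 and 44748721 reads counted on genes, and levels are given as CPM, a gene's share of the counts of its library on a common scale, with library sizes adjusted by the TMM method of edgeR. Pearson's r of log2 CPM between the replicates was 0.992 at day 0 and 0.988 at day 3, and each pair differed by more than sampling noise (chi-square statistic per gene 16.5 and 32.6, where counting error alone gives about 1). Mitochondrial transcripts took 2.50% to 2.84% of the counts at day 0 and 4.72% to 4.97% at day 3. The labelled cell type was borne out by its markers. Myod1, Pax7, Des and the other genes of the 12 muscle markers were counted in all 4 libraries. Markers of other cells differed in level. The macrophage markers summed to 5.48 and 5.69 CPM at day 0 and 7.70 and 7.40 CPM at day 3, with Ptprc and C1qa at 0 counts in every library. The fibroblast markers summed to 42.6 and 38.2 CPM at day 0 against 97.5 and 70.0 CPM at day 3, with 3 of 10 tested called up and Tcf21 at 0. The endothelial markers summed to 18.3 and 9.44 CPM and then to 24.8 and 10.4 CPM, with 1 of 10 called up. The smooth muscle and pericyte markers ranged widely in level, led by Des, which is also a muscle gene, and Acta2 (757 and 919 CPM at day 0, 1222 and 1175 CPM at day 3). Other members include Tagln (77.6 and 72.5, then 223 and 193 CPM), Smtn (106 and 122, then 269.9 and 219 CPM) and Abcc9 (32.1 and 32.7, then 227 and 212 CPM), all called up. Rgs5 was called down, from 54.1 and 80.2 to 2.57 and 2.06 CPM, and the smooth muscle factor Myocd stayed under 1 CPM in every library. Also low were Myh11 (0.868 and 0.225, then 2.97 and 0.631 CPM) and Cnn1 (0.169 and 0.254, then 2.92 and 1.02 CPM). Kcnj8 had at most 1 read in any library. The part of cells other than muscle in the other results was not tested.

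Of 16144 genes that passed the filter on low counts, 2821 (17.5%) were called up and 2398 (14.9%) were called down at day 3. Called means an adjusted p under 0.05 in edgeR's quasi-likelihood test together with a change of more than 1 on the log2 scale in either direction. SE is an approximate standard error: the absolute log2 fold change divided by the square root of the test's F statistic. The median log2 fold change of all tested genes was 0.01. Scaled by library totals alone, it was -0.20, and the calls split into 2293 up and 3149 down, so a share of the calls near the threshold turns on the scaling. Log2 fold changes are those of day 3 over day 0 throughout. The shares over all tested genes, 17.5% up and 14.9% down, are the background for the list counts below.

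**Figure D1:**
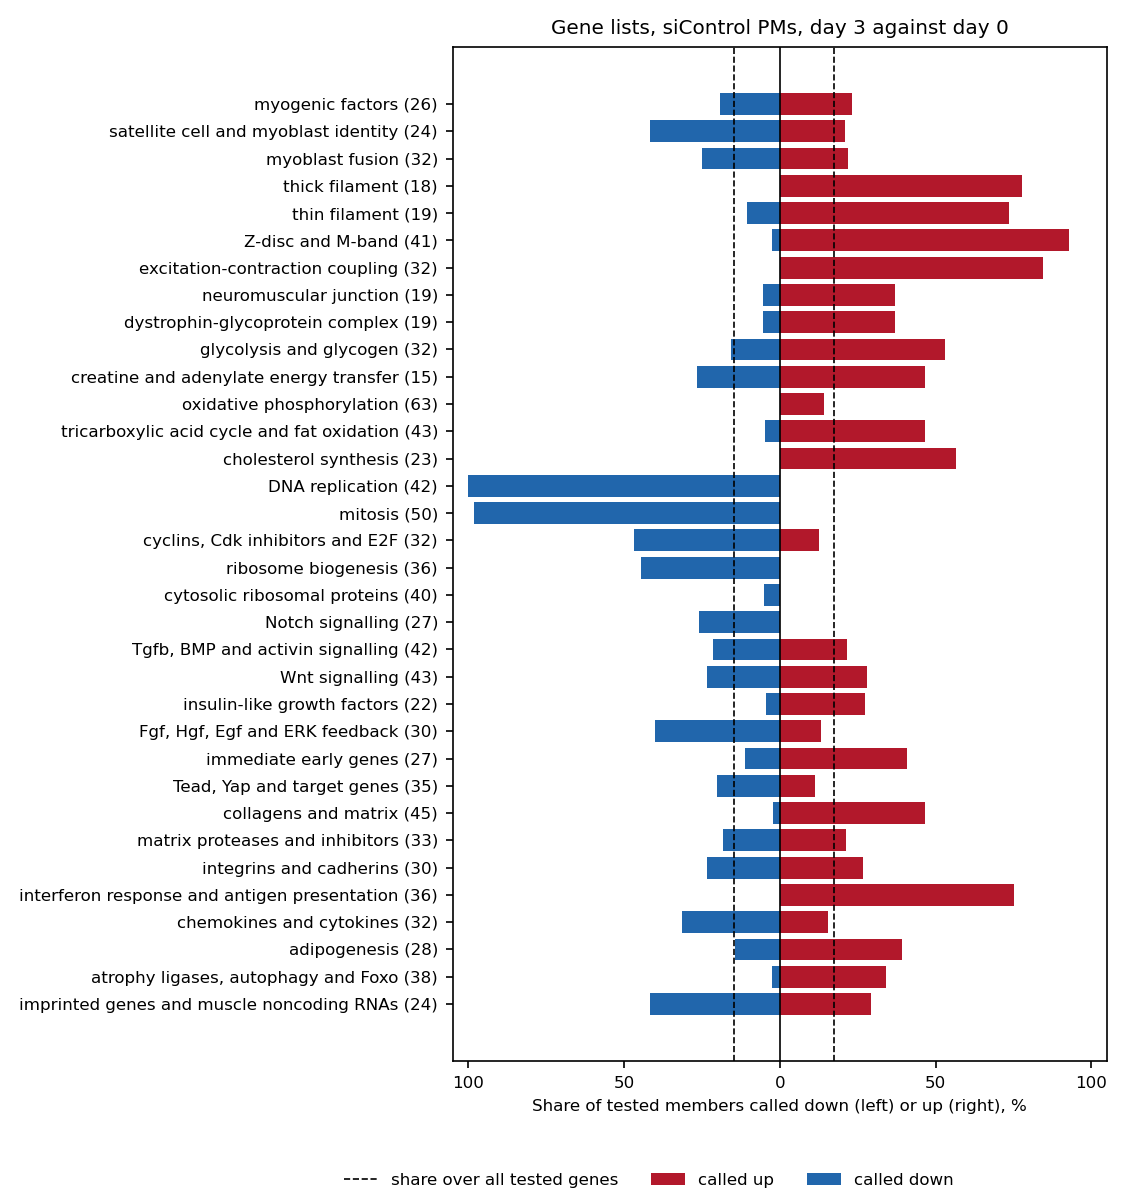
Share of the tested members of 34 gene lists that were called up (red, to the right) or down (blue, to the left) at day 3 in siControl PMs, in percent, with the number of tested members in brackets. Dashed lines mark the shares over all tested genes, 17.5% up and 14.9% down; the sarcomere and calcium-handling lists reach far to the right and DNA replication and mitosis far to the left.

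The 10 largest rises were taken from called genes above 10 CPM, without genes that have only a Gm or Rik symbol. They included genes of the sarcomere and of fast muscle fibres beside genes of other kinds. Myh4, the fast type IIB myosin heavy chain, was at 10.7 and 13.1 CPM at day 0 and at 2484 and 1902 CPM at day 3 (log2 fold change 7.53, SE 0.36, adjusted p by edgeR = 1.81e-07). The groups were far apart and the replicates close. Pvalb, the calcium buffer parvalbumin of fast fibres, went from 2.18 and 1.58 to 322 and 209.8 CPM (log2 fold change 7.12). Mybpc2, fast myosin-binding protein C, had 1.38 and 1.30 CPM before and 156 and 166 CPM after (6.90), and Myoz1, a calcineurin-binding protein of the Z-disc, 5.08 and 3.89 and then 380.4 and 365 CPM (6.37). Ky, named for the kyphoscoliosis mutant with its muscle disease, rose from 1.46 and 2.37 to 115 and 123 CPM (5.98). Thrsp, a lipogenic factor responsive to thyroid hormone, had 0.169 and 0.0282 CPM at day 0, or 8 and 1 reads, and 31.5 and 28.4 CPM at day 3 (log2 fold change 8.08, SE 0.42, adjusted p by edgeR = 2.57e-07). Gabrd, a GABA-A receptor subunit, went from 0.106 and 0.169 to 21.9 and 23.3 CPM, Slco5a1, a member of the organic anion transporter family, from 1.25 and 0.958 to 84.8 and 77.5 CPM, Sh2d4a, an SH2-domain protein, from 0.254 and 0.507 to 33.8 and 22.4 CPM, and Ptgds, prostaglandin D2 synthase, from 0.127 and 0.0563 to 13.0 and 9.39 CPM.

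The 10 largest falls, taken in the same way, were those of genes with varied roles. Sct, the hormone secretin, was highest before differentiation, at 112 and 202 CPM, and fell to 0.837 and 0.922 CPM (log2 fold change -7.47, SE 0.45, adjusted p by edgeR = 5.21e-07). Scn9a, a voltage-gated sodium channel, went from 17.7 and 15.9 to 0.108 and 0.0971 CPM (-7.32), and Gpr97, an adhesion receptor, from 20.3 and 23.3 to 0.135 and 0.194 CPM (-7.01). Both of these were left with at most 8 reads per library at day 3. Sp7, the transcription factor osterix of bone-forming cells, was at 87.1 and 79.0 CPM and then at 1.11 and 2.04 CPM (-5.71), and Dlx2, a homeobox factor, at 38.2 and 51.9 and then 1.78 and 1.70 CPM (-4.69). Rgs5, a pericyte marker, fell from 54.1 and 80.2 to 2.57 and 2.06 CPM (-4.86). Cldn4, a tight junction protein, Aqp5, a water channel, Pcp4l1, and Nebl, the nebulin relative nebulette, complete the 10, with log2 fold changes of -5.31, -5.03, -5.02 and -5.28.

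On a per-length scale the called transcripts that gained most were H19, Mylpf, Acta1, Myl1, Tnnt3, mt-Nd2, mt-Nd4 and Aldoa. Genes not called, such as mt-Co1 with means of 5060 CPM at day 0 and 9700 CPM at day 3, were not ranked. H19, an imprinted noncoding RNA, was at 12655 and 10173 CPM at day 0 and at 30733 and 23787 CPM at day 3 (log2 fold change 1.26, SE 0.18, adjusted p by edgeR = 0.000147). The called transcripts that lost most were Vim, Ptma, Actb, Cfl1, Rps12, S100a6, Tubb5 and Npm1, which include genes of the cytoskeleton and the ribosome. Vim, the intermediate filament vimentin, fell from 4395 and 4807 to 932 and 945 CPM (log2 fold change -2.29, SE 0.17, adjusted p by edgeR = 1.63e-06), while Des, the muscle intermediate filament desmin, rose from 1549.6 and 1459.6 to 6673 and 6351 CPM (log2 fold change 2.11, SE 0.11, adjusted p by edgeR = 2.57e-07). Actb, cytoplasmic actin, fell from 2195 and 2207 to 565 and 555 CPM (-1.97), and Acta1, skeletal actin, rose from 2489 and 2164 to 10427 and 9631 CPM (2.11). At day 3 Acta1 stood at 6936 CPM per kilobase against 1609 at day 0.

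Of 26 tested members of the list of myogenic factors 6 were called up (23.1%) and 5 down (19.2%). These shares were near those over all tested genes, 17.5% and 14.9%. The early determination factors fell. Myod1 was at 1005 and 1012 CPM at day 0 and at 393 and 445 CPM at day 3 (log2 fold change -1.27, SE 0.24, adjusted p by edgeR = 0.00104). Myf5 was at 90.0 and 124 CPM and then at 16.7 and 27.3 CPM (log2 fold change -2.28, SE 0.25, adjusted p by edgeR = 2.45e-05). Replicates of a day lay close together for Myod1 and less so for Myf5, and the days did not overlap for either gene. Myf6, the late factor Mrf4, rose from 11.5 and 8.90 to 73.0 and 93.7 CPM (log2 fold change 3.03, SE 0.17, adjusted p by edgeR = 3.33e-07). Myog was not called, at 958 and 1038 CPM at day 0 and 949 and 1121 CPM at day 3 (log2 fold change 0.05, SE 0.17, adjusted p by edgeR = 0.804): the day 0 cells, labelled undifferentiated, already held it at 675 CPM per kilobase against 544 for Myod1. The E proteins Tcf3 and Tcf12, the partners of these factors, fell from 169 and 178 to 47.2 and 53.0 CPM (-1.79) and from 327 and 305 to 128 and 151 CPM (-1.18). Msc, a repressor of the same helix-loop-helix family, was called up, but from 0.127 and 0.197 CPM to no more than 1.27 and 2.14 CPM.

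The 3 Mef2 genes that were tested differed in size of change. Mef2c rose from 192 and 205 to 1301 and 1423 CPM (log2 fold change 2.78, SE 0.13, adjusted p by edgeR = 1.81e-07) and Mef2d from 172 and 174 to 541 and 478 CPM (log2 fold change 1.56, SE 0.12, adjusted p by edgeR = 1.67e-06). Mef2a was at 480.1 and 512 CPM and then at 751 and 695 CPM, a change under the limit of the call (log2 fold change 0.54, SE 0.11, adjusted p by edgeR = 0.00145). Among the Tead factors, which bind MCAT sequences and are the targets of the study's other siRNAs, Tead4 rose from 64.2 and 59.5 to 186 and 189 CPM (log2 fold change 1.60, SE 0.16, adjusted p by edgeR = 1.39e-05). Tead2 fell from 149.8 and 139 to 58.9 and 69.2 CPM (log2 fold change -1.17, SE 0.14, adjusted p by edgeR = 4.55e-05). Tead1, at 172 and 151 and then 278 and 267 CPM (log2 fold change 0.75, edgeR adjusted p = 0.0548), and Tead3, at 16.6 and 17.2 and then 30.6 and 35.5 CPM (0.97, edgeR adjusted p = 0.00177), were not called. Of the other Hippo pathway genes Yap1 did not pass (log2 fold change 0.01). Of 35 tested members of the Hippo pathway list 4 were called up and 7 down, where 17.5% and 14.9% of all tested genes were. Ctgf, a Yap target that also answers to Tgfb, rose from 19.1 and 17.0 to 194 and 104 CPM (3.04), whereas the target Ankrd1 fell from 595 and 746 to 328 and 318 CPM (-1.05).

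**Figure D2:**
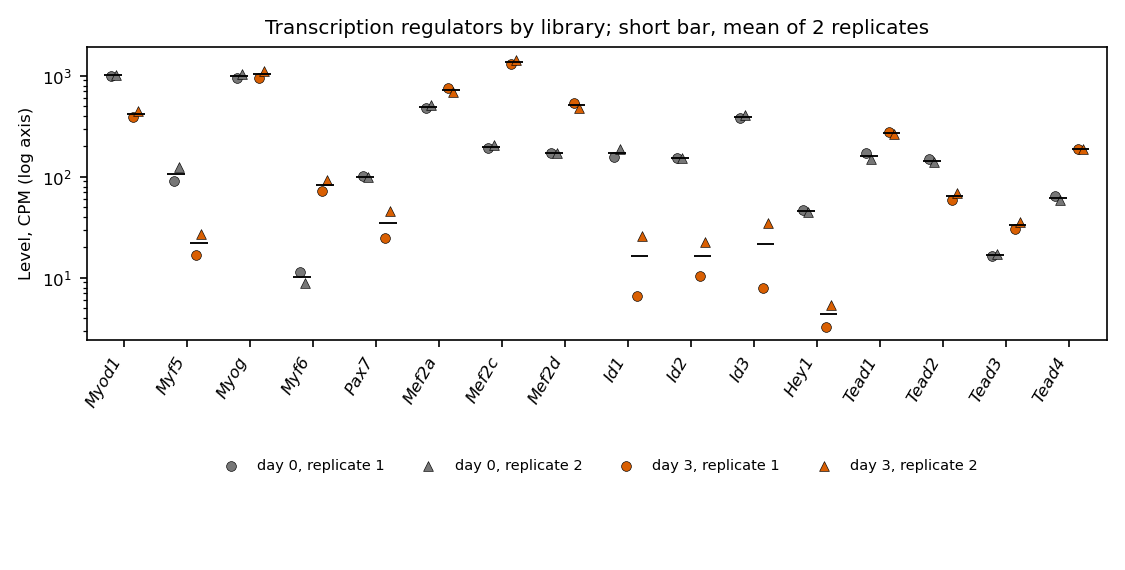
Level of 16 transcription regulators in CPM on a log axis, by library, in siControl PMs at day 0 (grey) and day 3 (orange); circles are replicate 1, triangles replicate 2 and short bars the mean. Myod1, Myf5, Pax7, Hey1, Tead2 and the Id genes sit lower at day 3, Myf6, Mef2c, Mef2d and Tead4 higher, and Myog overlaps; the Id genes are lower in replicate 1 than in replicate 2 of day 3.

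The inhibitors of the myogenic factors fell together. Id1, which sequesters E proteins, was at 156 and 189 CPM at day 0 and at 6.56 and 26.1 CPM at day 3 (log2 fold change -3.39, SE 0.74, adjusted p by edgeR = 0.00258), Id2 at 152 and 152 and then 10.5 and 22.5 CPM (log2 fold change -3.20, SE 0.58, adjusted p by edgeR = 0.000771), and Id3 at 379 and 405 and then 7.89 and 34.9 CPM (log2 fold change -4.19, SE 0.85, adjusted p by edgeR = 0.00155). The day 3 libraries differed from each other, replicate 2 being the higher for each, but both lay well below day 0. Hey1, a Notch-induced repressor, fell from 47.5 and 44.9 to 3.30 and 5.39 CPM (log2 fold change -3.41, SE 0.36, adjusted p by edgeR = 1.69e-05). Of 27 tested genes of Notch signalling 7 were called down (25.9%, against 14.9% of all tested genes) and 0 up. They include the receptors Notch1 (147 and 107, then 41.7 and 68.6 CPM, log2 fold change -1.20) and Notch3 (-1.12), the ligand Dll1 (78.3 and 87.4, then 27.8 and 32.4 CPM, -1.46), the nuclear effector Rbpj (-1.29) and the glycosyltransferase Lfng (22.2 and 34.7, then 1.51 and 2.01 CPM). Leaving out day 0 replicate 1 or day 3 replicate 1 gave 1 call up in this list.

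Of 24 tested genes of satellite cell and myoblast identity 10 were called down (41.7%) and 5 up (20.8%), against 14.9% and 17.5% of all tested genes. Pax7, the marker of satellite cells, fell from 101 and 99.2 to 24.7 and 45.5 CPM (log2 fold change -1.51, SE 0.27, adjusted p by edgeR = 0.000714), and here too day 3 replicate 2 was the higher. Also down were the receptors Met (-2.12), Fgfr4 (-1.54) and Cxcr4 (-1.98) and the adhesion molecule Vcam1 (-1.86). Those called up were Des, Spry1 (1.93), Cd34 (1.62), Ncam1 (1.13) and Itga7 (1.02), of which Des, Ncam1 and Itga7 are also made by myotubes. Only 3 were up when scaled by library totals or without day 0 replicate 2. In bulk RNA, fewer cells of a type and less RNA per cell cannot be told apart.

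Among the 34 lists, those of DNA replication and mitosis had the largest shares of members called. All 42 tested genes of DNA replication were called down, with a median log2 fold change of -3.04, against a background of 14.9% of genes down. Mcm5, a subunit of the replicative helicase, was at 162 and 169 CPM at day 0 and at 13.1 and 13.6 CPM at day 3 (log2 fold change -3.63, SE 0.20, adjusted p by edgeR = 2.95e-07). Mcm10, which helps to load the replication machinery, showed the largest fall of the list, from 53.3 and 55.6 to 3.03 and 3.15 CPM (-4.14), followed by Rrm2, which makes deoxynucleotides, at 709.9 and 788 and then 47.2 and 46.3 CPM, Cdc6, a loader of the helicase (-3.97), and Chaf1b, a histone chaperone (-3.85). The smallest fall was that of Pold2, a subunit of DNA polymerase delta, at 63.7 and 62.3 and then 27.1 and 28.4 CPM (-1.18). Of 50 tested genes of mitosis, 49 were called down (median -3.39). Ccnb1, the mitotic cyclin, fell from 126 and 138 to 9.54 and 9.90 CPM (log2 fold change -3.77, SE 0.30, adjusted p by edgeR = 2.46e-06) and Mki67, the proliferation marker, from 399.9 and 361 to 30.0 and 41.9 CPM (-3.40). Aurkb (-3.70) and Plk1 (-3.61), kinases of mitosis, moved by similar amounts. The exception was Pttg1, securin, at 13.7 and 13.6 CPM at day 0 and 15.3 and 16.4 CPM at day 3 (log2 fold change 0.22, SE 0.12, adjusted p by edgeR = 0.157). Its partner Espl1, separase, fell from 84.8 and 75.7 to 5.46 and 6.21 CPM (-3.78).

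Promoters of mitotic genes often hold the CHR element, TTTGAA, and CCAAT boxes. A promoter window from RefSeq (GRCm38.p6) was found for 40 of the 50 mitosis genes. Among these, TTTGAA stood on either strand within 250 bases before the gene start in 15 (37.5%), against 10.4% of 10614 tested genes with a window. CCAAT stood in 75.0% of them, in 64.7% of the 34 DNA replication genes with a window, and in 36.1% of tested genes. The E2F sequence TTTCCCGC was in 3 of those 34 (8.82%) against 1.61%. These are matches of letters and not shown to be bound. The 100 bases before the start of the 3 called mitosis genes with the largest fall that hold TTTGAA in that stretch are shown with the element in capitals, TTCAAA being the same element on the other strand and coordinates in GRCm38.p6.
Espl1 (chr15:102296193-102296292, plus strand): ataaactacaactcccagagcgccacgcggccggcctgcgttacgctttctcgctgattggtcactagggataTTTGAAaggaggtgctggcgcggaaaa
Kif11 (chr19:37376282-37376381, plus strand): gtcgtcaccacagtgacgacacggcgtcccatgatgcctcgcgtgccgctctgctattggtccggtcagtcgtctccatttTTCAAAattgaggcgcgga
Ncapg (chr5:45669825-45669924, plus strand): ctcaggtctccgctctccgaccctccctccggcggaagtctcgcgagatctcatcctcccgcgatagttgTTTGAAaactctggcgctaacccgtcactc
Kif11, a motor of the spindle, fell from 173 and 168 to 12.9 and 15.6 CPM (-3.58), and Ncapg, a condensin subunit, from 89.9 and 81.2 to 6.89 and 7.98 CPM (-3.52).

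Regulators of the cell cycle moved in both directions. Of 32 tested cyclins, Cdk inhibitors and E2F factors 15 were called down (46.9%) and 4 up (12.5%), against 14.9% and 17.5% of all tested genes. Cdkn1c, the inhibitor p57, rose from 36.3 and 47.1 to 429 and 429.8 CPM (log2 fold change 3.36, SE 0.34, adjusted p by edgeR = 1.22e-05) and Cdkn1a, the inhibitor p21, from 788 and 705 to 2238 and 1974 CPM (log2 fold change 1.50, SE 0.14, adjusted p by edgeR = 7.64e-06). Cdkn1b, p27, was not called (0.41), and the inhibitors Cdkn2a (45.3 and 51.6, then 14.7 and 28.1 CPM, -1.18) and Cdkn2c (31.3 and 35.7, then 12.6 and 15.3 CPM, -1.26) fell. The 3 D-type cyclins, which start the cycle in response to growth factors, parted from each other. Ccnd1 fell from 528 and 497 to 94.5 and 78.5 CPM (log2 fold change -2.57, SE 0.28, adjusted p by edgeR = 2.33e-05), Ccnd2 rose from 85.6 and 61.7 to 206 and 184 CPM (log2 fold change 1.40, SE 0.29, adjusted p by edgeR = 0.0019), and Ccnd3 was at 465 and 460.2 CPM at day 0 and 405 and 527 CPM at day 3 (log2 fold change 0.01, SE 0.18, adjusted p by edgeR = 0.964). Cdk4, their kinase, fell from 375 and 354 to 92.4 and 110.1 CPM (-1.85) and the growth regulator Myc from 47.0 and 73.2 to 19.4 and 23.4 CPM (-1.49). Among the E2F genes, E2f1 (-2.15), E2f7 (-2.78) and E2f8 (-1.84) fell while E2f6, a repressor, rose (1.24).

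Genes of ribosome production fell in part. Of 36 tested genes of ribosome biogenesis 16 were called down and 0 up (median -0.93). Npm1, nucleophosmin, fell from 1368 and 1308 to 298 and 308 CPM (log2 fold change -2.14, SE 0.12, adjusted p by edgeR = 2.89e-07), and Ncl, nucleolin, from 1728 and 1657 to 482 and 471 CPM (-1.83). The 40 cytosolic ribosomal proteins all had log2 fold changes below 0 (median -0.57), but 2, Rpl3 (629 and 592, then 229 and 289 CPM, -1.24) and Rps2 (-1.15), passed the call. Scaled by library totals alone 6 passed, and 5 without day 3 replicate 2.

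Sarcomere genes rose across the filaments. Of 18 tested thick filament genes 14 were called up and 0 down (median 2.48), of 19 thin filament genes 14 up and 2 down (median 2.16), and of 41 genes of the Z-disc and M-band 38 up and 1 down (median 1.92), where 17.5% of all genes were called up. Of the thick filament, Myl1, an essential light chain, was at 867 and 639 CPM at day 0 and at 7253 and 6526 CPM at day 3 (log2 fold change 3.19, SE 0.17, adjusted p by edgeR = 3.02e-07), and Mylpf, the fast regulatory light chain, at 1503 and 1233 and then 6902 and 5960.2 CPM (log2 fold change 2.23, SE 0.15, adjusted p by edgeR = 8.39e-07). Of the thin filament, Tnnt3, fast troponin T, rose from 726 and 695 to 5256 and 4477 CPM (log2 fold change 2.78, SE 0.12, adjusted p by edgeR = 8.02e-08), and Neb, nebulin, which spans the filament, from 657 and 530.2 to 4288 and 3678 CPM (log2 fold change 2.75, SE 0.32, adjusted p by edgeR = 3.68e-05). Nebl fell in the opposite direction. Tpm2, tropomyosin beta, rose from 1253 and 1253 to 6131 and 5062 CPM (2.16), whereas Tpm3 fell from 179 and 177 to 60.7 and 58.6 CPM (-1.58). Of the Z-disc and M-band, Tcap, the cap of titin, rose from 21.9 and 21.6 to 299 and 263 CPM (3.69). The cardiac ankyrin repeat protein gene Ankrd1 was the member called down. Its call was lost without day 0 replicate 2 and with all 24 libraries in the fit. Ankrd2 was at 15.3 and 11.3 CPM at day 0 and 12.6 and 4.80 CPM at day 3, not called.

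The myosin heavy chains showed a range of starting levels. The embryonic chain Myh3 was already at 4108 and 3792 CPM at day 0 and rose to 10616 and 10722 CPM (log2 fold change 1.43, SE 0.22, adjusted p by edgeR = 0.000248). The perinatal chain Myh8 went from 605 and 493 to 6634 and 7019 CPM (log2 fold change 3.64, SE 0.22, adjusted p by edgeR = 5.53e-07). Adult fast chains rose as well, Myh2 (IIA) from 3.47 and 3.92 to 24.4 and 41.2 CPM (log2 fold change 3.15, SE 0.34, adjusted p by edgeR = 2.21e-05) and Myh1 (IIX) from 827 and 948 to 7185 and 6838 CPM (log2 fold change 2.98, SE 0.21, adjusted p by edgeR = 1.35e-06). The slow chain Myh7 was at 12.4 and 25.2 CPM and then 32.1 and 43.1 CPM and was not called (log2 fold change 1.01, SE 0.41, adjusted p by edgeR = 0.0542). Per kilobase, the day 3 mean was 1735 CPM for Myh3, 867 for Myh8, 363 for Myh4, 1104 for Myh1, 5.39 for Myh2 and 5.90 for Myh7, so the embryonic chain remained the highest. The genes other than Myh7 lie in a cluster and all share long stretches of sequence, so the split of reads between them is less certain than for unique genes.

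**Figure D3:**
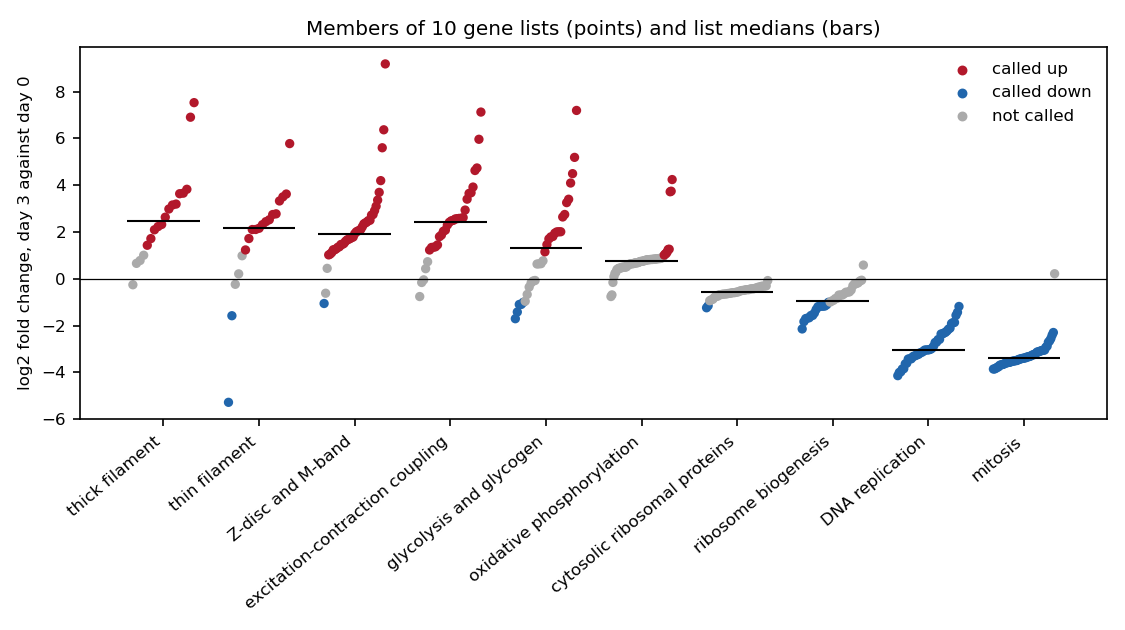
Log2 fold change of day 3 over day 0 for each tested member of 10 gene lists in siControl PMs, in order of size within a list; red points were called up, blue down and grey not, and bars are list medians. Medians run from 2.48 for the thick filament to -3.39 for mitosis, where Pttg1 is the grey point near 0.

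E-boxes of the form CAGCTG, MCAT elements (CATTCC) and Mef2 sites are the sequences bound by the factors named above. Of 62 genes of the sarcomere lists with a promoter window, 30.6% held CAGCTG in the 250 bases before the start, against 12.4% of tested genes. CATTCC was in 30.6% against 11.0%, and a Mef2 site in 19.4% against 1.77%. Both strands were searched. The stretches shown are those of the called members with the largest change that hold, in 100 bases before the start, CAGCTG (Myh4 and Mybpc1) or a Mef2 site (Myh8), in capitals, with coordinates in GRCm38.p6.
Myh4 (chr11:67237712-67237811, plus strand): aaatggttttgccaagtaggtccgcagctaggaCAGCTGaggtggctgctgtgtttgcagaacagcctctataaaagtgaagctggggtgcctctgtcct
Mybpc1 (chr10:88605153-88605252, minus strand): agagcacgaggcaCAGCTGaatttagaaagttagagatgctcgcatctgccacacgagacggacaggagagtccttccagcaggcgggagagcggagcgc
Myh8 (chr11:67277024-67277123, plus strand): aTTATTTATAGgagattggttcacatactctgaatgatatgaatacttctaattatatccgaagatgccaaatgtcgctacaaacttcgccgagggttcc
Mybpc1, slow myosin-binding protein C, rose from 214 and 205 to 2919 and 3011 CPM (3.83).

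The machinery that couples the membrane signal to calcium release rose with the filaments, 27 of 32 tested members being called up and 0 down (median 2.45). Ryr1, the calcium release channel, was at 408 and 341 CPM at day 0 and at 2407 and 2077 CPM at day 3 (log2 fold change 2.58, SE 0.23, adjusted p by edgeR = 5.38e-06). Atp2a1, the fast calcium pump, went from 535 and 501 to 6980.1 and 6024 CPM (log2 fold change 3.65, SE 0.16, adjusted p by edgeR = 1.25e-07) and Casq1, the calcium store protein, rose by 3.40 on the log2 scale. The pump regulator Sln (5.96), the chloride channel Clcn1 (4.74) and the second release channel Ryr3 (4.63) were among the largest rises. Ryr3 was at 1.33 and 1.04 CPM at day 0 and at 18.0 and 41.4 CPM at day 3.

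At the neuromuscular junction 7 of 19 tested genes were called up (36.8%) and 1 down (5.26%), against 17.5% and 14.9% of all tested genes. Ache, acetylcholinesterase, rose from 1.59 and 2.14 to 63.5 and 53.7 CPM (log2 fold change 4.99, SE 0.35, adjusted p by edgeR = 1.2e-06). Chrne, the adult acetylcholine receptor subunit, rose from 0.106 and 0.282 to 12.4 and 8.08 CPM (5.78), and the fetal subunit Chrng from 329 and 354 to 881 and 737 CPM (1.25). Chrna1, the subunit that binds the transmitter, was at 1756 and 1827 and then 2271 and 2014 CPM and was not called. Per kilobase, Chrng stood at 421 CPM at day 3 against 6.07 CPM for Chrne. Of 19 tested genes of the dystrophin complex, which anchors the fibre to its matrix, 7 were up (36.8%) and 1 down (5.26%). Dmd, dystrophin, rose from 25.5 and 16.8 to 307 and 292 CPM (log2 fold change 3.82, SE 0.29, adjusted p by edgeR = 1.9e-06).

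Of 32 tested genes of myoblast fusion 7 were called up (21.9%) and 8 down (25.0%), against 17.5% and 14.9% of all tested genes. Tmem8c, myomaker, which is required for fusion, rose from 371 and 392 to 1183 and 1035 CPM (log2 fold change 1.54, SE 0.20, adjusted p by edgeR = 9.15e-05). Gm7325, the gene of the second fusion protein, myomerger, was at 65.4 and 94.1 CPM at day 0 and 62.6 and 71.5 CPM at day 3, and the groups overlapped (-0.25). Dysf, the membrane repair protein dysferlin, rose by 2.26 and its relative Myof fell (-1.10). Without day 3 replicate 1, 5 of the list were called down.

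Some enzymes of energy metabolism moved in opposite directions in their isoforms. Of 32 tested genes of glycolysis and glycogen 17 were called up (53.1%) and 5 down (15.6%), against 17.5% and 14.9% of all tested genes. The pairs below were set side by side after their values were seen. Muscle phosphofructokinase, Pfkm, rose from 185 and 156 to 1755 and 1503 CPM (log2 fold change 3.26, SE 0.16, adjusted p by edgeR = 1.81e-07), while the platelet and liver forms fell, Pfkp from 84.1 and 75.6 to 31.4 and 43.3 CPM (-1.09) and Pfkl from 152 and 114 to 59.8 and 64.5 CPM (-1.10). Muscle phosphoglycerate mutase, Pgam2, rose from 119 and 103 to 849 and 647 CPM (2.75) and its brain form, Pgam1, fell from 153 and 137 to 44.0 and 45.3 CPM (-1.70). The muscle glycogen phosphorylase Pygm rose from 141 and 137 to 2540.1 and 2208 CPM (4.09) and the brain form Pygb fell from 51.5 and 47.4 to 26.5 and 22.8 CPM (-1.01). The days did not overlap for any of these genes. Enolase followed in part, with muscle Eno3 rising from 789 and 739 to 3178 and 2952 CPM (2.00) and Eno1 at 969 and 918 and then 496 and 475 CPM, just short of the call (-0.96). Other isoforms moved together. The aldolases Aldoa (1674 and 1509.9, then 7028 and 5276 CPM, 1.95) and Aldoc (1.21 and 0.817, then 14.7 and 6.87 CPM, 3.40) both rose, and the lactate dehydrogenases Ldha (0.63) and Ldhb (0.64) were both positive and not called. Slc2a4, the insulin-regulated glucose transporter, rose from 4.85 and 4.96 to 98.6 and 122 CPM (4.49). Without day 0 replicate 1, 3 of the list were called down.

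Of 15 tested purine and creatine enzymes 7 were called up (46.7%) and 4 down (26.7%), against 17.5% and 14.9% of all tested genes. Adssl1, the muscle adenylosuccinate synthase, rose from 52.5 and 38.8 to 352 and 302 CPM (2.84) and its relative Adss fell from 150 and 152 to 24.3 and 25.5 CPM (-2.60). The muscle AMP deaminase Ampd1 rose from 11.3 and 10.7 to 125 and 97.6 CPM (3.34) as Ampd2 fell from 86.0 and 83.5 to 39.7 and 37.6 CPM (-1.13), but Ampd3, a form of other tissues, rose from 12.7 and 16.6 to 47.7 and 44.2 CPM (1.65). Muscle creatine kinase, Ckm, went from 83.8 and 53.6 to 2148 and 1559 CPM (log2 fold change 4.75, SE 0.34, adjusted p by edgeR = 1.45e-06), and the brain form Ckb was at 122 and 164 and then 292 and 218 CPM, not called (0.83).

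Mitochondrial genes moved by less. The 63 tested nuclear genes of oxidative phosphorylation had a median log2 fold change of 0.74. Of them 9 were called up (14.3%, against 17.5% of all tested genes), 5 when scaled by library totals alone. The 3 largest were isoforms restricted to heart and muscle: Cox7a1 (3.98 and 2.28, then 63.7 and 56.2 CPM, 4.24), Cox6a2 (13.0 and 13.6, then 167 and 189 CPM, 3.74) and Cox8b (5.59 and 4.48, then 72.6 and 60.7 CPM, 3.72). Of their widely expressed relatives, Cox6a1 and Cox8a had log2 fold changes of -0.69 and -0.76, and Cox7a2 had 0.46. None of them was called. At day 3 Cox6a2 stood at 271 CPM per kilobase and Cox6a1 at 213. All 12 tested mRNAs of the mitochondrial genome had positive values (median 0.95), with mt-Nd2, mt-Nd4, mt-Nd5 and mt-Nd6 called up. Of 43 genes of the tricarboxylic acid cycle and fat oxidation 20 were up and 2 down, 11 up when scaled by library totals. Cpt1b, the muscle form of the enzyme that admits fatty acids to mitochondria, rose from 1.08 and 0.563 to 8.97 and 6.53 CPM (3.21), and the liver form Cpt1a fell from 84.1 and 86.4 to 36.7 and 27.7 CPM (-1.40). Of 23 genes of cholesterol synthesis 13 were up and 0 down, 7 up when scaled by totals. Dhcr7, which catalyses the last step, rose from 24.4 and 24.2 to 93.4 and 133 CPM (2.22).

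Of the growth factor pathways, the insulin-like growth factors had 6 of 22 tested members called up (27.3%) and 1 down (4.55%), against 17.5% and 14.9% of all tested genes. Scaled by library totals 2 were down. The count down also rose without day 0 replicate 2, day 3 replicate 1 or day 3 replicate 2. Igf1 rose from 1.23 and 2.45 to 5.67 and 11.6 CPM (log2 fold change 2.25, SE 0.50, adjusted p by edgeR = 0.00283) and Igf2, the factor myoblasts make for themselves, from 1824 and 1498 to 4643 and 3698 CPM (log2 fold change 1.33, SE 0.19, adjusted p by edgeR = 0.000154). The binding protein Igfbp2 fell from 64.8 and 68.7 to 6.70 and 15.5 CPM (-2.59), with a difference between the day 3 replicates. Of 30 tested genes of Fgf, Hgf, Egf and ERK feedback 12 were called down and 4 up. Fgf6, an Fgf made by muscle, was at 2.75 and 2.65 CPM at day 0 and 0.0270 and 0.146 CPM at day 3 (-4.88), Fgfr4, its receptor in myoblasts, fell (-1.54), and the feedback inhibitors Spry2 (-1.18), Spry4 (-1.24), Spred2 (-1.94) and Dusp4 (-1.55) fell too. Spry1 was the Sprouty gene that rose (1.93).

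In Tgfb, BMP and activin signalling 9 of 42 tested members were called up and 9 down (21.4% each, against 17.5% and 14.9% of all genes). Those down included the BMP-induced genes Id1, Id2 and Id3, given above, Id4 (-1.86) and the inhibitory Smad6 (-1.82) and Smad7 (-1.29). Those up included the BMP antagonists Chrd (2.69 and 6.53, then 56.5 and 58.5 CPM, 3.66) and Nog (1.17) and the ligand Bmp2 (3.09). Relatives also parted: Smad3, an effector of Tgfb, rose (1.89) and Smad9, of BMP, fell (-2.58), and of the latent Tgfb-binding proteins Ltbp2 rose (1.96) and Ltbp1 fell (-1.46). Mstn, myostatin, fell from 40.6 and 42.0 to 21.7 and 15.7 CPM (-1.14). In Wnt signalling 12 of 43 were up (27.9%) and 10 down (23.3%), against the same 17.5% and 14.9%, with 6 up at no fewer than 10 counts in every library. Axin2, a feedback target of the pathway, rose from 0.360 and 0.479 to 5.89 and 8.83 CPM (log2 fold change 4.14, SE 0.33, adjusted p by edgeR = 2.89e-06), and Wnt4 (2.81), Wnt6 (2.96) and Wnt11 (3.67) rose as the ligands Wnt7b (-2.03) and Wnt10b (-2.68) fell. Of the secreted antagonists, Frzb (3.67), Wif1 (2.39) and Dkk2 (2.11) rose and Sfrp2 (-4.03) fell, so ligands and antagonists each went both ways. Many of these genes were near 1 CPM.

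Of 27 tested immediate early genes, which answer rapidly to stimuli, 11 were called up (40.7%) and 3 down (11.1%), against 17.5% and 14.9% of all tested genes. Nr4a3, an orphan nuclear receptor, rose from 0.635 and 0.394 to 32.6 and 24.7 CPM (log2 fold change 5.76, SE 0.39, adjusted p by edgeR = 9.37e-07), Egr3 by 4.78 on the log2 scale and Fos from 3.47 and 2.65 to 10.3 and 15.6 CPM (2.07). Fosl1, a Fos relative of growing cells, fell from 14.3 and 17.1 to 1.94 and 1.89 CPM (log2 fold change -3.03, SE 0.21, adjusted p by edgeR = 1.08e-06).

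Matrix genes rose more often than they fell, with 21 of 45 tested collagens and matrix proteins called up and 1 down (median 0.98). Col1a1, the main chain of type I collagen, went from 74.6 and 47.3 to 1082 and 983 CPM (log2 fold change 4.08, SE 0.38, adjusted p by edgeR = 7.31e-06), Postn, periostin, from 23.4 and 14.8 to 241 and 367 CPM (3.99) and the crosslinking enzyme Lox by 3.94. Col3a1, of type III, was at 453 and 497 CPM and then 302 and 526 CPM, and the groups overlapped. The fibroblast markers Dcn, Col14a1 and Cd248 were also called up, at a summed level of the whole marker list of no more than 97.5 CPM. The other 7 of 10 tested were not called, among them Pdgfra (3.60 and 3.30, then 3.19 and 2.57 CPM). The part of fibroblasts in the matrix result was not tested. Of 33 tested matrix proteases and inhibitors 7 were up (21.2%) and 6 down (18.2%). Of 30 integrins and cadherins 8 were up (26.7%) and 7 down (23.3%). The shares over all tested genes were 17.5% and 14.9%. Itga6, a laminin receptor subunit, fell from 438 and 481 to 99.7 and 143 CPM (-1.92) and its partner Itgb4 from 136 and 150.4 to 10.5 and 8.49 CPM (-3.92). Itga7, of the muscle laminin receptor, rose from 784 and 733 to 1549 and 1532 CPM (1.02). Of 11 tested markers of smooth muscle and pericytes 7 were up, 4 without day 3 replicate 1, and 1 down. Des accounts for most of their summed level, and Acta2, not called, for much of the rest.

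Of 36 tested genes of the interferon response and antigen presentation 27 were called up (75.0%, against 17.5% of all tested genes) and 0 down (median 2.39). This count fell when a replicate 2 library of either day was left out. Summed over the list, levels were 270.7 and 250.4 CPM at day 0 and 387 and 861 CPM at day 3, replicate 2 being the high one. Without day 3 replicate 2, 11 were called up, and without day 0 replicate 2, 13. Isg15, a ubiquitin-like protein, was at 2.07 and 0.507 CPM at day 0 and at 3.43 and 37.5 CPM at day 3, so that replicate 1 lay near day 0 and replicate 2 far above it. Irf7, a transcription factor of the response, was at 0.974 and 0.986 and then 2.86 and 18.7 CPM. H2-K1, a class I antigen-presenting molecule, behaved otherwise and was even between replicates, at 12.8 and 13.1 CPM at day 0 and 86.4 and 80.6 CPM at day 3 (log2 fold change 2.69, SE 0.11, adjusted p by edgeR = 7.61e-08). B2m, its partner chain, was at 87.7 and 86.6 and then 67.7 and 121 CPM and was not called.

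**Figure D4:**
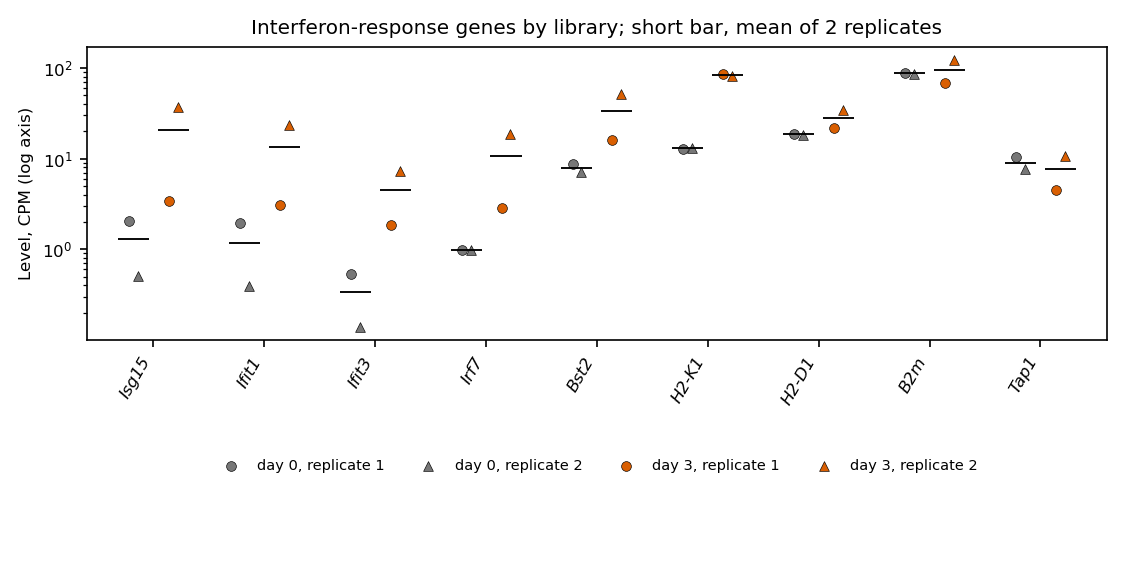
Level of 9 interferon-response and antigen presentation genes in CPM on a log axis, by library, in siControl PMs at day 0 (grey) and day 3 (orange); circles are replicate 1, triangles replicate 2 and short bars the mean. For Isg15 and Irf7 the day 3 triangle stands well above the day 3 circle, while both day 3 points of H2-K1 lie together above day 0.

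The interferon-stimulated response element is a repeat of GAAA. GAAA followed after any 2 bases by a further GAAA, on either strand, was in 39.3% of 28 genes of this list with a window, against 2.47% of tested genes, and overlapping copies were joined in capitals. Shown are the 100 bases before the start of the called members with the largest change among those above 10 CPM, Isg15 with 3 overlapping copies and Ifit1 with a copy on the other strand, with coordinates in GRCm38.p6.
Isg15 (chr4:156200819-156200918, minus strand): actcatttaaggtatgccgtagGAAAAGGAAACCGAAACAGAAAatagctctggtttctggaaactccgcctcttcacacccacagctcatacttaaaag
Ifit1 (chr19:34640789-34640888, plus strand): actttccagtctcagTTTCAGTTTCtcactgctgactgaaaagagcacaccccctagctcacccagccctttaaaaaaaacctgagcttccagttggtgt
Ifit1, a protein that binds foreign RNA, was at 1.97 and 0.394 CPM at day 0 and 3.08 and 23.7 CPM at day 3.

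Of 32 tested chemokines and cytokines 10 were called down (31.25%) and 5 up (15.6%), against 14.9% and 17.5% of all tested genes. Cxcl12, a chemoattractant, fell from 159 and 186 to 15.2 and 15.1 CPM (log2 fold change -3.51, SE 0.36, adjusted p by edgeR = 1.34e-05), and its receptor Cxcr4 from 19.6 and 36.0 to 2.86 and 11.1 CPM (-1.98). The growth factor Csf1 (-1.80) and the alarmin Il33 (-3.02) fell, and Lif (3.08) and Il15 (2.36), both made by muscle, rose. Among 28 genes of adipogenesis 11 were up (39.3%) and 4 down (14.3%). The defining fat cell regulator Pparg fell from 7.28 and 6.70 to 1.51 and 1.75 CPM (-2.10) and Adipoq had at most 1 read in any library. Those up included Ucp2 (17.2 and 17.7, then 163 and 163 CPM) and the lipid genes Scd1 (2.87) and Cd36 (2.14), which muscle also uses.

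Of 38 tested genes of atrophy ligases, autophagy and Foxo 13 were called up (34.2%) and 1 down (2.63%), against 17.5% and 14.9% of all tested genes. Trim63, the ubiquitin ligase MuRF1, rose from 14.2 and 14.7 to 105 and 88.5 CPM (log2 fold change 2.75, SE 0.13, adjusted p by edgeR = 1.72e-07), while Fbxo32, atrogin-1, was at 38.5 and 47.2 and then 35.1 and 38.9 CPM with overlapping groups (-0.21). Of 24 tested imprinted genes and muscle noncoding RNAs 10 were down (41.7%) and 7 up (29.2%), and the count up fell without day 0 replicate 1. Mest, a paternally expressed gene, fell from 1218 and 1393 to 149 and 273 CPM (log2 fold change -2.63, SE 0.38, adjusted p by edgeR = 0.000167), and the noncoding RNAs Meg3 (-1.34) and Rian (-1.30) of the Dlk1 cluster fell with it. Cdkn1c, Igf2 and H19, which share an imprinted region, rose.

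The same comparison in siControl C2C12 cells shows where the response of PMs differed. Over all 24 libraries and 16926 genes, the log2 change from day 0 to day 3 was called more positive in PMs for 641 genes (3.79%) and more negative for 1260 (7.44%). In each cell type's own fit, 1318 of 14577 genes tested in both were called up in both and 1200 down in both, while 35 were up in PMs and down in C2C12 cells and 93 the reverse. Levels in this comparison were scaled over all 24 libraries. The strains and the base media (IMDM for PMs, DMEM for C2C12 cells) differ between the cell types as well, and PMs were plated on matrigel. Cell type, strain and culture therefore cannot be told apart.

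**Figure D5:**
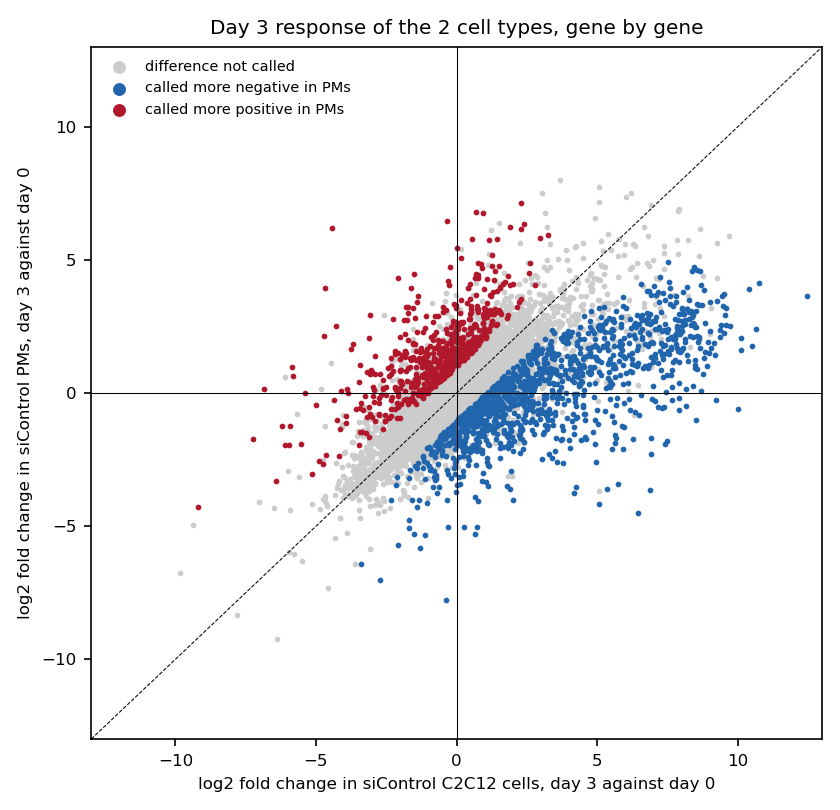
Log2 fold change of day 3 over day 0 in siControl PMs (vertical) against that in siControl C2C12 cells (horizontal) for 14577 genes tested in both; red genes were called more positive in PMs, blue more negative and grey were not called, and the dashed line marks equal change. The blue genes spread to the right, where C2C12 cells rose by more than PMs.

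On the log2 scale, the change of sarcomere genes was smaller in PMs than in C2C12 cells. Of 19 tested thick filament genes 15 were called more negative in PMs and 0 more positive, of 19 thin filament genes 13 and 1, and of 41 Z-disc and M-band genes 27 and 3. The mean level summed over the thick filament genes was 8677 CPM in PMs and 63.6 CPM in C2C12 cells at day 0, and 49643 and 18858 CPM at day 3. Acta1 was at 2492 and 2165 CPM in PMs and 36.0 and 8.48 CPM in C2C12 cells at day 0, and at 10830 and 10032 CPM in PMs and 5156 and 4729 CPM in C2C12 cells at day 3 (difference -5.64, SE 0.65, adjusted p by edgeR = 1.48e-05). Thus PMs were the higher at both days, with the smaller log2 change but the larger gain in CPM. Tmem8c was at 371 and 392 CPM in PMs and 5.38 and 1.85 CPM in C2C12 cells at day 0 and at 1229 and 1078 CPM in PMs and 970.1 and 854 CPM in C2C12 cells at day 3 (difference -6.41, SE 0.72, adjusted p by edgeR = 1.17e-05). Gm7325, for which the change in PMs was not called, was at 65.5 and 94.1 CPM in PMs and 0.338 and 0.213 CPM in C2C12 cells at day 0 and at 65.0 and 74.5 CPM in PMs and 183 and 150 CPM in C2C12 cells at day 3 (difference -9.47, SE 0.73, adjusted p by edgeR = 3.26e-07). Myog, not called in PMs, was at 9.68 and 2.91 CPM in C2C12 cells at day 0 and 1154 and 1125 CPM at day 3 (difference -7.41, SE 0.72, adjusted p by edgeR = 2.54e-06).

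The lists of DNA replication, mitosis and ribosome biogenesis held few such genes, while of 32 cyclins, Cdk inhibitors and E2F factors 4 were called more negative and 3 more positive. Of 42 DNA replication genes 1 was called more negative and 0 more positive, of 50 mitosis genes 0 and 1, and of 36 genes of ribosome biogenesis 0 and 0. The mitosis gene was Pttg1, at 13.7 and 13.6 CPM in PMs and 77.1 and 70.1 CPM in C2C12 cells at day 0 and at 15.9 and 17.1 CPM in PMs and 11.6 and 7.59 CPM in C2C12 cells at day 3 (difference 3.21, SE 0.60, adjusted p by edgeR = 0.00144). Its level fell in C2C12 cells and was not called in PMs. Glycolysis and glycogen had 9 of 32 genes more positive in PMs and 2 more negative. Slc2a4 was at 4.85 and 4.96 CPM in PMs and 0.479 and 0.498 CPM in C2C12 cells at day 0 and at 102 and 127 CPM in PMs and 2.90 and 3.10 CPM in C2C12 cells at day 3 (difference 1.94, SE 0.56, adjusted p by edgeR = 0.0288). Of the immediate early genes 7 of 27 were more positive and 0 more negative, Egr3 being at 0.827 and 1.35 CPM in PMs and 8.22 and 16.1 CPM in C2C12 cells at day 0 and 20.7 and 40.5 CPM in PMs and 33.6 and 37.6 CPM in C2C12 cells at day 3 (difference 3.28, SE 0.53, adjusted p by edgeR = 0.000437).

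Opposite calls were found for the Notch ligand Dll1, which fell from 78.4 and 87.5 to 28.9 and 33.7 CPM in PMs and rose from 1.04 and 0.622 to 21.4 and 26.7 CPM in C2C12 cells (difference -6.29, SE 0.58, adjusted p by edgeR = 1.5e-06). By day 3 the 4 libraries of both cell types stood within 21.4 to 33.7 CPM. Mest fell from 1220.1 and 1393 to 155 and 284 CPM in PMs and rose from 4.31 and 5.70 to 68.9 and 72.6 CPM in C2C12 cells (difference -6.39, SE 0.91, adjusted p by edgeR = 0.000126). Camk1g, a calcium-dependent kinase, fell from 19.8 and 29.8 to 1.77 and 2.63 CPM in PMs and rose from 0.563 and 0.533 to 9.53 and 12.0 CPM in C2C12 cells (difference -7.78, SE 0.54, adjusted p by edgeR = 1.45e-07). Mlf1 went the other way, with a rise from 2.65 and 3.18 to 14.3 and 31.6 CPM in PMs and a fall from 2.62 and 1.71 to 0.189 and 0.324 CPM in C2C12 cells (difference 6.01, SE 0.62, adjusted p by edgeR = 4.69e-06). Thrsp, the largest of the 10 rises named for PMs, had at most 2 reads in any C2C12 library of either day, so no fold is given there. Ankrd2, not called in PMs, was at 0.0844 and 0.0533 CPM in C2C12 cells at day 0, or 3 reads in each library, and at 84.9 and 60.7 CPM at day 3. Shroom2 and Spna1 were likewise at or below 3 reads in C2C12 cells at day 0, and Sprr1a had at most 4 reads in any PM library, so their fitted differences depend on the prior count and are not given.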

How the data were processed

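RNA of 24 libraries (12 of PMs, 12 of C2C12 cells; 2 per cell type, siRNA and day) was sequenced after poly-A selection; the kit does not record which strand was read, and genes that overlap can share reads. The authors deposited raw read counts of 28109 genes, mapped to mm9; the submitters' processing notes name TopHat2 2.0.10, Bowtie2 2.1.0 and HTSeq 0.6.1. The 36 columns of 12 libraries not listed here were not used, nor the DESeq2-scaled values. Counts were analysed with edgeR 4.0.16 in R 4.3.3 (filterByExpr, TMM, glmQLFit, glmQLFTest, Benjamini-Hochberg), with the 12 PM libraries and 6 group means in 1 fit. The difference from C2C12 cells was fitted over 24 libraries and 12 groups. Alternatives were DESeq2 1.42.0, other scalings, filters and sets of libraries, a replicate block and leaving out each library. On simulated data with 200 genes changed by 2 on the log2 scale, edgeR called 155 of 187 tested, with 1 false call, and 114 of 190 with 2 for the difference. The other genes were simulated at their day 0 level, so errors under as broad a change as that of these data were not assessed.

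Members and gene lists were chosen with earlier results of these data known. Named genes are the 10 largest rises and falls among called genes above 10 CPM whose days did not overlap. The 8 largest gains and losses per kilobase among called genes and up to 4 called genes per list and direction were added. So were 30 fixed regulators, myosins and growth genes. For the difference, the 5 largest called per direction and 10 with opposite calls were named, with the same limit on level. Genes with a symbol of Gm and a number or ending in Rik, and immune receptor segments, were left out of the rises, falls and differences. Others were chosen after their values were seen. Bounds rest on a floor of 3 counts per library.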

Additional observations from a re-analysis of the deposited data

Results flagged for a closer look

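The day 3 response differed between siControl PMs and siControl C2C12 cells, by the test of the difference itself, for 641 genes with a more positive and 1260 genes with a more negative log2 change in PMs. Of the genes named for this difference, those above the floor in every group were more negative in PMs by -9.28 for B3galt5, a glycosyltransferase, -9.23 for Chrdl1, a BMP antagonist, -7.92 for Nov, a matrix protein, -7.78 for Camk1g, -7.19 for Htr2b, a serotonin receptor, -6.39 for Mest, -6.34 for Parm1 and -6.29 for Dll1. The positive differences were 7.01 for Ngfr, a neurotrophin receptor, 6.47 for Plek and 6.01 for Mlf1. All are log2 values. Gm7325, whose difference given above is more negative than any of these, was left out of the ranking by its symbol. Parm1 had 12.5 and 41.7 CPM in the day 3 PM libraries and 8.40 and 41.7 CPM in those of C2C12 cells, a wide spread within each group. Ngfr and Plek were not called in PMs: in C2C12 cells they fell from 19.7 and 15.5 to 0.212 and 0.101 CPM and from 19.6 and 15.5 to 0.330 and 0.304 CPM.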

How the results depend on the processing

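With DESeq2, with other filters, scalings and sets of libraries, and with a replicate block, the counts of genes called up and down at day 3 stayed within 1.5 times the reported ones. Leaving out each library gave 2571 to 2712 genes up and 2127 to 2378 down. For the difference from C2C12 cells it gave 418 to 608 genes more positive and 957 to 1140 more negative in PMs. The lowest were 418 without PM day 0 replicate 2 and 426 without PM day 3 replicate 1. With at least 10 counts in every compared library, 839 were more negative, a filter that tests fewer genes. With the lone library of a group, the spread is taken to be that of the other groups.

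The replicate numbers are shared between groups, but no source says that a number marks an animal or a day. Deviations of same-numbered PM libraries correlated between 0.07 and 0.54, 0.13 for siControl days 0 and 3. With a replicate block 2929 genes were called up and 2464 down, and 695 and 1324 for the difference.

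Of 271 named genes, direction changed for Ccnd3, Myog and Ngfr, none of them called. Over all these genes and alternatives, 3382 values kept the outcome of the main fit, 77 lost its call and 7 gained one. Ccnd3 was at -0.0034 with the replicate block, -0.20 scaled by library totals, and -0.18 to 0.19 leaving out a library, from the fits without day 3 replicate 2 and replicate 1. Myog was at -0.16 scaled by totals and -0.067 to 0.17 leaving out a library, again without day 3 replicate 2 and replicate 1. Ngfr was at -0.084 with the block, -0.083 scaled by totals and -0.93 to 0.76 without day 3 replicate 1 and replicate 2. Of small counts, the 2 genes of the tricarboxylic acid cycle called down were 1 without day 0 replicate 1 or day 3 replicate 2, the 2 macrophage markers called down were 1 without day 0 or day 3 replicate 2, and the atrophy gene called down was lost without day 3 replicate 2. With 2 libraries a group, changes of low genes are the least certain.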

Other observations

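Of 720 tested lincRNA genes 151 were called up and 78 down at day 3, of 289 antisense genes 84 and 22, and of 448 pseudogenes 33 and 79. Without strand, reads of an antisense gene and its partner cannot be told apart. Of 82 tested snoRNA genes 46 were called down and 2 up (median log2 fold change -1.61). These RNAs carry no poly-A tail and lie in introns of host genes, so their counts can hold reads of the host. The snoRNA hosts Gas5 and Snhg1 fell from 117 and 152 to 57.2 and 61.4 CPM (log2 fold change -1.18, SE 0.16, adjusted p by edgeR = 0.00012) and from 66.3 and 77.4 to 20.5 and 25.8 CPM (log2 fold change -1.63, SE 0.17, adjusted p by edgeR = 1.66e-05). Neat1, a noncoding RNA of nuclear paraspeckles, was at 40.7 and 146 CPM at day 0, an uneven pair, and rose to 435 and 367 CPM (log2 fold change 2.11, SE 0.48, adjusted p by edgeR = 0.00325), and Malat1 rose from 248 and 244 to 549.9 and 547 CPM (log2 fold change 1.15, SE 0.33, adjusted p by edgeR = 0.0123).

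Schwann cell markers summed to 151 and 141 CPM at day 0 and 372 and 350.0 CPM at day 3, of which Erbb3, also made by muscle, gave 128 and 124 and then 350.3 and 343 CPM. The defining marker Sox10 was at 1.10 and 0.141 and then 2.92 and 0.0485 CPM, and 1 of 8 tested was up and 1 down. Of the adipocyte markers 3 of 10 could be tested, 1 up and 1 down.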
